A study of Saccharomyces cerevisiae with 4 samples.

Results

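The transcripts described here are those of 10 budding yeast cell cycle genes: the G1 cyclin genes CLN1 (YMR199W), CLN2 (YPL256C) and CLN3 (YAL040C), the Pho85 cyclin genes PCL1 (YNL289W) and PCL2 (YDL127W), the S phase cyclin genes CLB5 (YPR120C) and CLB6 (YGR109C), the mitotic cyclin genes CLB1 (YGR108W) and CLB2 (YPR119W), and SIC1 (YLR079W). They were taken by name from the 6207 open reading frame (ORF) rows of the deposited table, with earlier results of these data known. Of these 10 genes 9 had a value on all 4 arrays, and CLN2 had a value on none. Wild-type Saccharomyces cerevisiae kept for 3 h with 5 units/ml of Zymolyase 100T, a glucan-digesting enzyme mixture that attacks the cell wall, was compared with the part of the same culture that received no enzyme. Both parts were grown in rich medium at 24 °C after dilution and 2 h 30 min of regrowth. RNA came from 2 cultures, and each was hybridised to 2 two-colour arrays with exchanged dyes. On arrays 1 and 3 the treated RNA was labelled with Cy3, and with Cy5 on arrays 2 and 4. Which arrays hold RNA of the same culture is not stated.

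As background, cyclins are the regulatory subunits of cyclin-dependent kinases, and their abundance rises and falls in turn as a cell divides. In budding yeast the kinase Cdc28 is first activated by Cln3, then by Cln1 and Cln2, which drive bud emergence, then by Clb5 and Clb6, which fire DNA replication, and finally by Clb1 and Clb2, which carry the cell into mitosis. Sic1 inhibits the Clb-bound kinase until it is destroyed at the start of S phase. Pcl1 and Pcl2 act in G1 with another kinase, Pho85. CLN1, CLN2, PCL1 and PCL2 are known targets of SBF, a transcription factor made of Swi4 and Swi6, while CLB5 and CLB6 are known targets of its relative MBF, made of Mbp1 and Swi6. Slt2, the kinase at the end of the cell wall integrity cascade, is known to phosphorylate Swi6.

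Each deposited value is a log ratio of the 2 channels, taken here as log2. The sources used here do not state the base or the numerator. Values were turned by the dyes to give the 4 arrays a common direction, and the sign was then set, after its values were seen, so that SLT2 is positive. SLT2 had 2.14, 2.39, 2.18 and 2.31 on arrays 1 to 4. A positive value below therefore lies on the side of SLT2 and a negative one opposite to it. Which of them is the higher in treated cells is not settled by the labels. As background, SLT2 transcript is known to increase when the wall is damaged. Turning every sign would exchange the sides and leave each size and test as it is. A ratio carries no expression level, so the genes cannot be ranked by abundance, and the signal behind each ratio is unknown. The share of ORFs with no value ran from 16.0% to 21.3% over the arrays. After turning, arrays correlated across ORFs with r from 0.09 (arrays 1 and 4) to 0.75 (arrays 2 and 4), and ORFs are not independent replicates.

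PCL2 was the single gene among the 9 that passed the test, and it lay on the side of SLT2. The other 8 genes did not pass in limma in either direction, and CLN1 alone among them had an unadjusted p under 0.05 (0.0209). With PCL2 that made 2 of the 9 genes at an unadjusted p under 0.05, near the 19.3% of all ORFs (878 of 4543) that reached it. The test was limma across the 4543 ORFs with values on 4 arrays, on averages of the arrays of a culture, with the larger p of the 2 possible pairings kept and an adjusted p below 0.05 required. It called 207 ORFs on the side of SLT2, or 4.56% of those tested, and 63, or 1.39%, on the opposite side. One call among 9 genes is thus set against 5.94% of all ORFs called in either direction. Because 2 cultures allow an exact sign-flip test of a single gene no p below 0.5, the fit across all ORFs is the one test of a gene given here. Whole cultures were measured, so more cells at a cell cycle stage and more transcript per cell cannot be told apart.

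**Figure D1:**
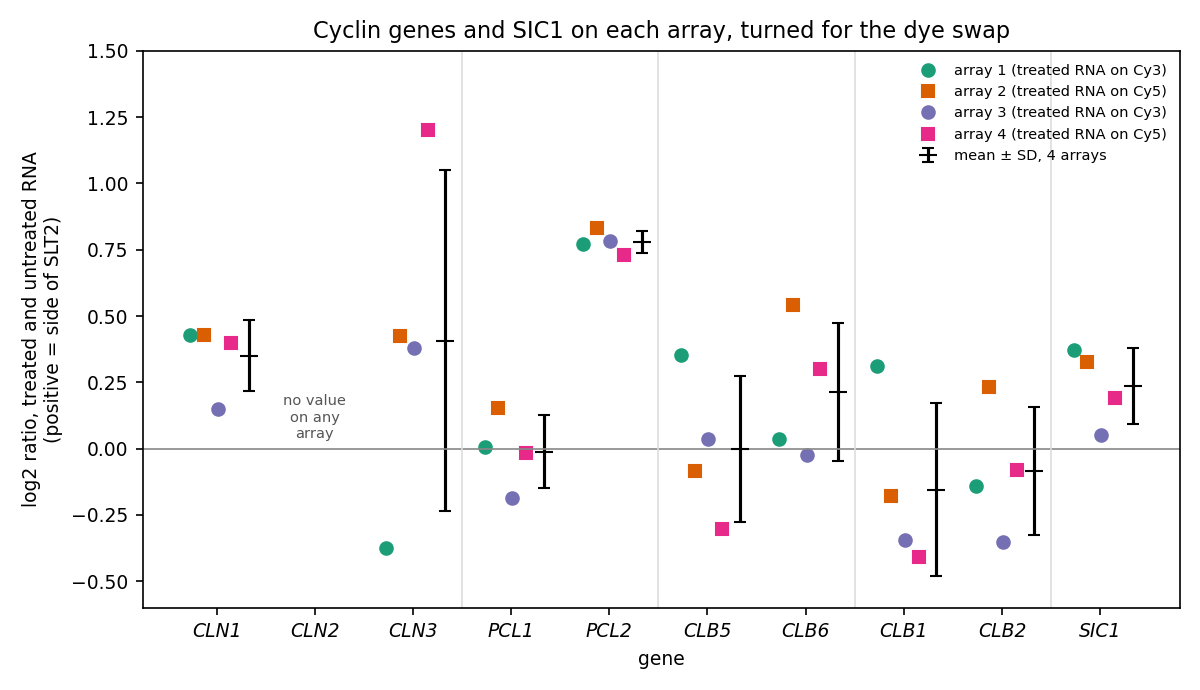
Log2 ratio (vertical axis, positive on the side of SLT2) of each gene (horizontal axis) on arrays 1 to 4, as circles for treated RNA on Cy3 and squares for treated RNA on Cy5, with the mean ± SD of 4 arrays in black. PCL2 lies between 0.73 and 0.83 on every array, whereas CLN3 spans from -0.37 to 1.20 and CLN2 has no value.

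Among the Pho85 cyclins, PCL2 had log2 ratios of 0.77, 0.83, 0.78 and 0.73 on arrays 1 to 4. All 4 values were positive and none stood apart from the others. The mean was 0.78 ± 0.04 (SD of 4 arrays, n = 2 cultures), a 1.72-fold difference between treated and untreated cells with a 95% interval of 1.42 to 2.08 before adjustment, and the adjusted p in limma was 0.00684. The standard error of the fit was 0.12, larger than the arrays' own spread, because limma draws each gene's variance towards that of all ORFs. PCL2 ranked 119 of 4543 ORFs by mean on the side of SLT2. On single arrays it stood at the 94.8th to 96.9th percentile. Its SD lay at the 0.75th percentile of all ORFs, so few transcripts were as even over the arrays. The mean was 0.78 with treated RNA on Cy3 and 0.78 with it on Cy5, and the difference between the orientations, -0.00465, lay at the 1.17th percentile of all ORFs by size.

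PCL1, the duplicate of PCL2, had 0.01, 0.15, -0.19 and -0.02 on arrays 1 to 4. These values straddled 0, with 2 positive and 2 negative. The mean was -0.01 ± 0.14, with a 95% interval from -0.30 to 0.27 before adjustment and an adjusted p of 0.981 in limma. The log2 ratio of PCL2 exceeded that of PCL1 by 0.76, 0.68, 0.97 and 0.75 on arrays 1 to 4, a mean difference of 0.79 ± 0.13. The pair thus differed in the same direction on all 4 arrays, and this difference between genes was not tested. The lower end of the interval of PCL2, 0.50, lay above the upper end of that of PCL1, 0.27. Both intervals are before adjustment and from the same arrays, and PCL2 is the gene that passed. Their gap is therefore no test of the difference.

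The G1 cyclin gene CLN1, whose product acts with Cdc28 at the start of the cycle, had 0.43, 0.43, 0.15 and 0.40 on arrays 1 to 4. All 4 values were positive, 3 of them close together and array 3 lower. The mean was 0.35 ± 0.13 and the 95% interval before adjustment ran from 0.07 to 0.63. With an adjusted p of 0.154 in limma it did not pass. By mean it stood at the 91.4th percentile of ORFs.

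CLN3, whose product is known to act upstream of SBF and MBF, had -0.37, 0.43, 0.38 and 1.20 on arrays 1 to 4. Array 1 was negative, array 4 was the highest, and arrays 2 and 3 lay between them. The mean, 0.41 ± 0.64, was the highest of the genes that did not pass (adjusted p = 0.266 in limma), and its SD lay at the 95.4th percentile of all ORFs. The averages of the 2 dye orientations differed, though arrays 2 and 3, of opposite orientation, were close. CLN3 averaged 0.0027 with treated RNA on Cy3 and 0.81 with it on Cy5, a difference at the 94.8th percentile of ORFs by size. The mean holds 2 arrays of each orientation. With the 4 arrays taken as independent, the adjusted p in limma was 0.208 with a dye term and 0.394 without one. Leaving out each array gave 0.60 without array 1 or array 2, 0.22 without array 3 and 0.21 without array 4 (adjusted p from 0.103 to 0.641 in limma). If array 1 is paired with array 2, and array 3 with array 4, the culture averages of CLN3 were 0.03 and 0.79. If array 1 is paired with array 4, and array 2 with array 3, they were 0.41 and 0.40, and the adjusted p in limma was 0.00257. Whether CLN3 passes thus depends on a pairing that the labels do not give. With robust empirical Bayes in limma CLN3 also passed (adjusted p = 0.0248). That setting called 2 of the 9 genes, PCL2 and CLN3, on the side of SLT2, against 7.88% of all ORFs, and 0 on the opposite side, against 4.95%.

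CLN2, the duplicate of CLN1, had an empty cell on all 4 arrays, so no statement on it can be made here. It was 1 of 767 ORFs with no value on any array.

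**Figure D2:**
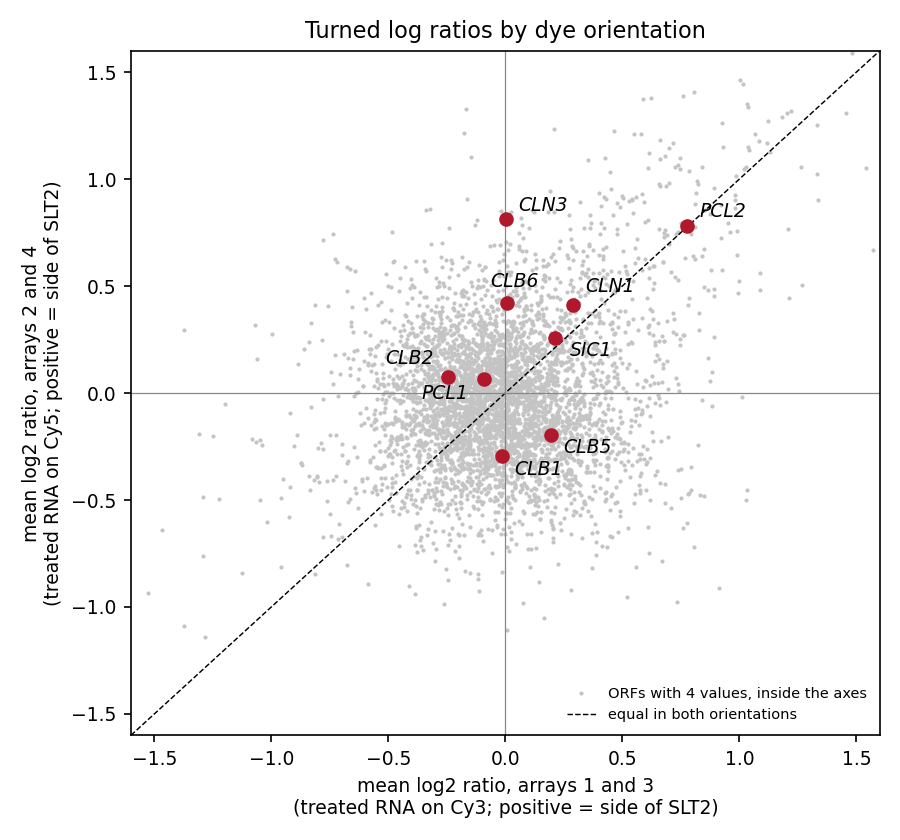
Mean log2 ratio of arrays 1 and 3, with treated RNA on Cy3 (horizontal axis), against that of arrays 2 and 4, with treated RNA on Cy5 (vertical axis), for the 9 measured genes (red) and the ORFs with 4 values that lie inside the axes (grey). PCL2 lies on the dashed line of equal values and SIC1 close to it, whereas CLN3 has 0.0027 in one orientation and 0.81 in the other.

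The S phase cyclins did not pass. CLB5, whose product is known as the main activator of late replication origins, had 0.35, -0.08, 0.03 and -0.30 on arrays 1 to 4. Its 2 positive values were both from arrays with treated RNA on Cy3 and its 2 negative values from those with it on Cy5. They averaged to -0.00025 ± 0.27 (adjusted p = 1.0 in limma, 95% interval before adjustment from -0.30 to 0.30). The mean near 0 therefore joins opposite signs, 0.19 with Cy3 and -0.19 with Cy5, and does not show that the transcript was unchanged.

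CLB6 had 0.04, 0.54, -0.02 and 0.30 on arrays 1 to 4. Here the 2 higher values came from the arrays with treated RNA on Cy5, the reverse of CLB5. The mean was 0.21 ± 0.26 (adjusted p = 0.405 in limma). The difference between CLB5 and CLB6 accordingly changed sign with the dyes. It was 0.32 and 0.06 with treated RNA on Cy3 but -0.62 and -0.60 with it on Cy5. Differences between orientations of this size were common. By size, that of CLB5 lay at the 67.3rd percentile of ORFs and that of CLB6 at the 70.3rd.

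The mitotic cyclins had negative means and did not pass either. CLB1 had 0.31, -0.18, -0.34 and -0.41 on arrays 1 to 4, with array 1 alone on the side of SLT2. The mean was -0.15 ± 0.33 (adjusted p = 0.643 in limma). Without array 1 a fit that weighs both orientations equally gave -0.32, and without array 3 it gave 0.00995. CLB2, whose product is the main mitotic cyclin, had -0.14, 0.23, -0.35 and -0.08. Only array 2 was positive. The mean was -0.09 ± 0.24 (adjusted p = 0.792 in limma), and the 95% interval before adjustment, -0.38 to 0.21, spans both signs. CLB2 minus CLB1 was -0.46, 0.41, -0.0075 and 0.33 on arrays 1 to 4, so the duplicates had no constant order.

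In the RefSeq gene table of assembly R64, CLB1 neighbours CLB6 and CLB2 neighbours CLB5, so that a mitotic cyclin gene stands beside an S phase cyclin gene at both places. Neighbours did not share a pattern over the arrays. CLB6 exceeded CLB1 on 3 of 4 arrays, with differences from -0.28 to 0.72, and CLB5 exceeded CLB2 on 2, with differences from -0.32 to 0.50. No other ORF of that table overlaps any of the 10 genes. Probe sequences were not used here, so signal shared between duplicates such as CLB1 and CLB2 or PCL1 and PCL2 was not measured.

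SIC1, which encodes the inhibitor of the Clb-bound kinase, had 0.37, 0.33, 0.05 and 0.19 on arrays 1 to 4. All 4 values were positive, with arrays 1 and 2 above arrays 3 and 4. The mean was 0.24 ± 0.14, with a 95% interval before adjustment of -0.06 to 0.53 and an adjusted p of 0.366 in limma. The orientations gave 0.21 with treated RNA on Cy3 and 0.26 with it on Cy5, a difference at the 9.59th percentile of ORFs by size. If array 1 is paired with array 4, and array 2 with array 3, the adjusted p in limma was 0.0455 for SIC1 and 0.00731 for CLN1. In that pairing 4 of the 9 genes, PCL2, CLN1, CLN3 and SIC1, passed the test on the side of SLT2, against 13.2% of all ORFs, and 0 passed it on the opposite side, against 13.9%.

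PCL2, CLN1 and SIC1 were positive on all 4 arrays, which held for 3 of the 9 genes and for 13.1% of all ORFs. None of the 9 was negative on all 4, as 15.3% of ORFs were. The median of the 9 means was 0.21, against -0.03 for all ORFs tested. By mean the genes stood in the order PCL2, CLN3, CLN1, SIC1, CLB6, CLB5, PCL1, CLB2 and CLB1. From CLN3 down to CLB1 the means of each neighbouring pair differed by less than the SD of either gene. PCL2 exceeded CLN3 by 0.37, more than the SD of PCL2 but less than that of CLN3.

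**Figure D3:**
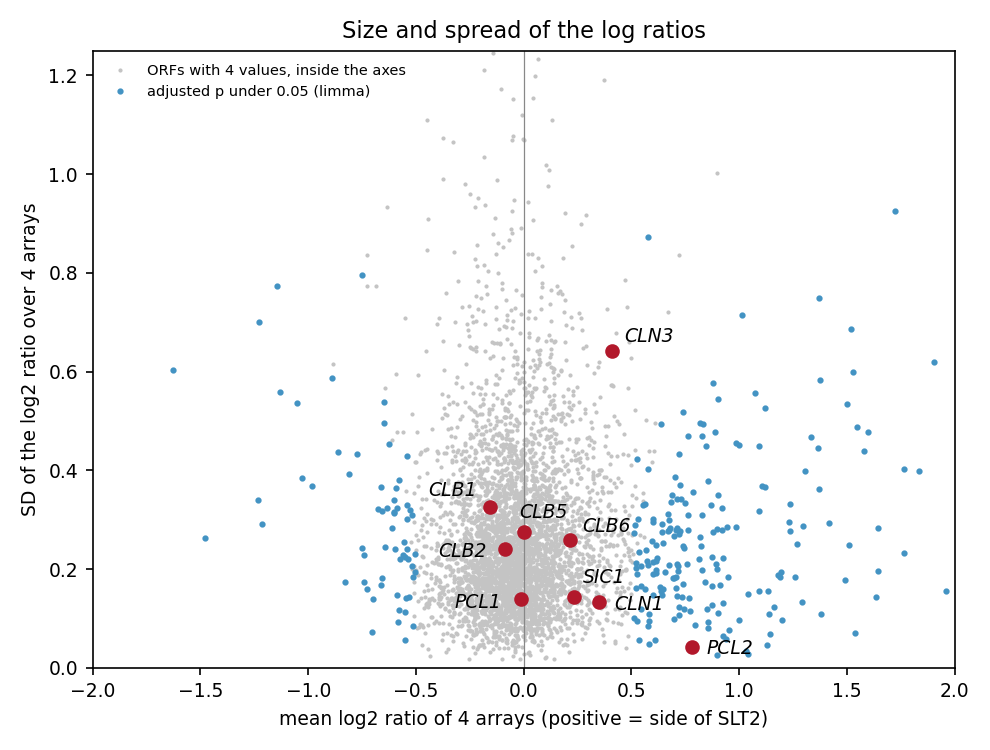
Mean log2 ratio of 4 arrays (horizontal axis, positive on the side of SLT2) against the SD over the arrays (vertical axis) for the 9 measured genes (red), all ORFs with 4 values that lie inside the axes (grey) and those with an adjusted p below 0.05 in limma (blue). PCL2 has a mean of 0.78 with an SD of 0.04, and CLN3 an SD of 0.64.

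The ORFs whose 4 values lay closest to those of PCL2 were RNY1, GSY2 and FLC1. The distance, the square root of the summed squared differences over 4 arrays, was 0.20 for RNY1, which encodes a vacuolar ribonuclease of the T2 family, with a mean of 0.72 ± 0.12. It was 0.21 for GSY2, the main glycogen synthase gene (0.85 ± 0.08), and 0.22 for FLC1, which encodes a membrane protein linked to flavin transport (0.79 ± 0.09). Each of the 3 passed the test (adjusted p = 0.0117, 0.00443 and 0.00678 in limma). They were chosen for values close to those of PCL2, which passed, so this follows largely from the choice. With 4 arrays, closeness in this measure reflects a similar size of ratio.

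Other G1 and S phase genes were compared as a list of 31 tested targets of SBF, MBF and related factors. Of these 3 passed on the side of SLT2, where 4.56% of all ORFs did, and 0 opposite, where 1.39% did. At an unadjusted p under 0.05 in limma there were 4 of the 31, against 19.3% of all ORFs. They were the 3 called genes and HO, which lay on the opposite side. The list median was 0.03. Its 3 called genes were GIC2, SVS1 and AXL2. GIC2 encodes an effector of the polarity GTPase Cdc42. It had 0.71, 1.31, 0.72 and 1.04 on arrays 1 to 4, a mean of 0.94 ± 0.29 (adjusted p = 0.00287 in limma), and was positive on every array with the higher values on arrays 2 and 4. SVS1, which encodes a wall and vacuolar protein, lay between 0.88 and 1.02 (adjusted p = 0.00270 in limma). AXL2, which encodes a landmark of axial budding, had -0.01, 0.98, 0.43 and 0.71, with 3 values positive and array 1 near 0. Its mean was 0.53 ± 0.42 (adjusted p = 0.0412 in limma). AXL2 missed the threshold in limma with arrays centred (adjusted p = 0.0610), with scaling as well (0.0982), with quantile normalization (0.0581), with the 4 arrays taken as independent and no dye term (0.131), and when any one array was left out (adjusted p from 0.0538 to 0.158, and from 0.00173 to 0.158 over all alternatives), whereas GIC2 and SVS1 passed in every alternative. GIC1, the duplicate of GIC2, had -0.45, 0.43, -0.38 and 0.24, with signs that followed the dyes. Lowest in the list were HO, the mating type switching endonuclease (-0.44 ± 0.14, adjusted p = 0.0770), and POL12, a subunit of DNA polymerase alpha (-0.23 ± 0.25, adjusted p = 0.361).

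**Figure D4:**
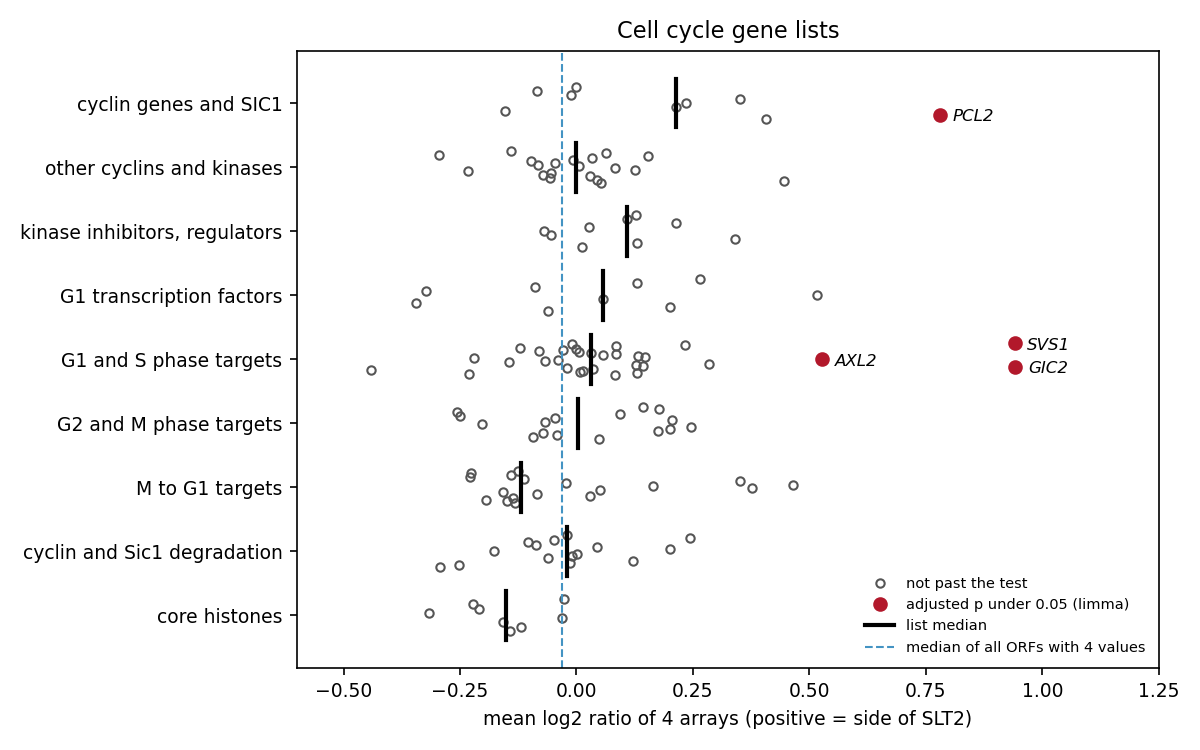
Mean log2 ratio of 4 arrays (horizontal axis, positive on the side of SLT2) of the genes in each list described here (vertical axis, without the sporulation and pheromone markers), filled and named where the adjusted p in limma was below 0.05, with the list median as a black bar and the median of all ORFs as a dashed line. The called genes are PCL2, SVS1, GIC2 and AXL2, and the medians drawn lie between -0.15 for core histones and 0.21 for the cyclin genes and SIC1.

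The transcription factors that act on these cyclin genes did not pass. Of 9 tested G1 factors 0 passed in limma in either direction, where 5.94% of all ORFs did. SWI4 and YOX1, 2 of the 9, had an unadjusted p under 0.05, near the 19.3% of all ORFs. The median was 0.06. SWI4, the DNA-binding subunit of SBF, had -0.37, -0.22, -0.37 and -0.42, all on the opposite side (-0.35 ± 0.09, adjusted p = 0.155). PCL2 and SWI4 thus lay on different sides on each array. YOX1, a repressor of M to G1 genes, had -0.12, 0.54, 0.48 and 1.16 (adjusted p = 0.115), lowest on array 1 and highest on array 4 as CLN3 was. MSA1, which associates with SBF and MBF, had -0.69, 0.57, 0.21 and 0.97. WHI3, whose RNA-binding product is known to hold CLN3 messenger RNA, had -1.54, -0.17, 0.05 and 0.37. CLN3, YOX1, MSA1 and WHI3 were all lowest on array 1 and highest on array 4. The medians of the G1 factors were -0.37, 0.13, 0.12 and 0.34 on arrays 1 to 4. This order was not particular to them. Medians were -0.16, -0.09, 0.06 and 0.14 for the G2 and M phase targets. For the M to G1 targets they were -0.20, -0.08, 0.05 and 0.19. No other list had its lowest median on array 1 and its highest on array 4. Single genes of other lists and ORFs outside the lists also were lowest on array 1 and highest on array 4. The share of all ORFs with this order was not counted. Without array 1 the log2 ratio was 0.67 for YOX1, 0.49 for MSA1 and 0.08 for WHI3, whose mean over 4 arrays was -0.32, and none of the 3 passed (adjusted p = 0.0945, 0.0960 and 0.754 in limma).

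The partners of the cyclins gave no calls. In limma 0 of 20 other cyclin and cyclin-dependent kinase genes passed, against 5.94% of all ORFs, and 1 had an unadjusted p under 0.05, against 19.3%. Those 2 shares of all ORFs apply to each list that follows. Their median was -0.0016. That one was CDC28, the kinase that binds the Cln and Clb cyclins, with 0.42, 0.59, 0.24 and 0.54 on the 4 arrays. All 4 were positive (0.45 ± 0.15, adjusted p = 0.0732). PHO85, the kinase of Pcl1 and Pcl2, had 0.03 ± 0.20. SSN3, the kinase of the Mediator complex, had 0.15 ± 0.30, and lowest were CLG1 (-0.23 ± 0.21) and PCL8 (-0.29 ± 0.31), both genes of Pho85 cyclins. Of 9 kinase inhibitors and regulators 0 passed in limma. Their median was 0.11, and CAK1 alone had an unadjusted p under 0.05. CAK1, the kinase that activates Cdc28, had 0.34 ± 0.21 (adjusted p = 0.156 in limma), HSL1, a kinase of the bud neck checkpoint, 0.21 ± 0.23, CDC14, the mitotic exit phosphatase, -0.06 ± 0.20 and CDC55, a regulatory subunit of protein phosphatase 2A, -0.07 ± 0.45. FAR1, the inhibitor of Cln-bound Cdc28 in the mating response, had 0.03 ± 0.19.

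The list of G2 and M phase targets, which also holds factors that act on them, such as FKH2, gave no calls. Neither did the list of M to G1 targets. Of 16 tested G2 and M phase targets 0 passed in limma, 0 of them at an unadjusted p under 0.05, and the median was 0.0030. MOB1, of the mitotic exit network, had 0.25 ± 0.13, while the polo kinase gene CDC5 had -0.25 ± 0.47 and FKH2, a factor of the CLB2 group, -0.26 ± 0.43. Of 18 tested M to G1 targets, the group of genes to which SIC1 belongs, 0 passed in limma. The median was -0.12, and ASH1, RME1 and CTS1, 3 of the 18, had an unadjusted p under 0.05, near the 19.3% of all ORFs. ASH1, a repressor of HO in daughter cells, had 0.61, 0.50, 0.09 and 0.66 (0.47 ± 0.26, adjusted p = 0.0690), positive on all 4 arrays and lowest on array 3, as CLN1 and SIC1 were. RME1, a repressor of meiosis, had 0.38 ± 0.29 (adjusted p = 0.127). CTS1, the chitinase of cell separation, had 0.35 ± 0.09 (adjusted p = 0.149). The lowest were DSE3 (-0.23 ± 0.15) and EGT2 (-0.23 ± 0.52), both of daughter cells. SWI5, which is known to activate SIC1 and PCL2, had -0.07 ± 0.13 (adjusted p = 0.817).

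Genes of the ubiquitin ligases that destroy cyclins and Sic1 gave 0 of 15 past the test in limma. Their median was -0.02, and CDC27 alone had an unadjusted p under 0.05. CDC4, the subunit that recognises phosphorylated Sic1, had -0.18 ± 0.18, and CDC34, the conjugating enzyme, had 0.12 ± 0.45 with positive values on arrays 1 and 3 and negative ones on arrays 2 and 4. APC2 (0.24 ± 0.46), a subunit of the anaphase-promoting complex, and CDC20 (0.20 ± 0.12), its activator, were highest, and APC11 (-0.25 ± 0.16) and CDC27 (-0.29 ± 0.18, adjusted p = 0.227) of that complex lowest.

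Core histone genes, whose transcripts mark S phase, were the other replication readout set beside CLB5 and CLB6. Of 8 tested 0 passed in limma, 0 of them at an unadjusted p under 0.05, and the median was -0.15. Their array medians were 0.36 and 0.01 with treated RNA on Cy3 (arrays 1 and 3) and -0.41 and -0.63 with it on Cy5 (arrays 2 and 4). These medians followed the dyes in the same sense as CLB5 and in the opposite sense to CLB6. HHT1 was an exception, with 0.06, 0.10, -0.18 and -0.11 on arrays 1 to 4. HHT2 had -0.03 ± 0.41 and HHT1 -0.03 ± 0.14, and HHF2 (-0.22 ± 0.47) and HTB1 (-0.32 ± 0.58) were lowest. Histone copies are near-identical and may share signal.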

How the data were processed

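The authors deposited 1 table of log ratios, 1 column per two-colour array, taken here as log2. How background, normalization and filtering were handled is not stated by any label or header used here. The 2 control rows of 6209 were left out. Gene names came from the RefSeq table of assembly R64, which matched 5654 of 6207 ORFs by locus tag; no coordinates are printed, since the array's build is not given. The dyes named in the labels gave each array's sign, and SLT2 the common one. limma 3.58.1 in R 4.3.3 (lmFit, eBayes) was run on the 4543 ORFs with 4 values and tested on simulated data. The simulation gave every ORF the same spread, so it does not check the calls at the unequal spreads of these data. The arrays of a culture were averaged, both pairings were fitted (1 with 2 and 3 with 4; 1 with 4 and 2 with 3) and the larger p was adjusted by Benjamini-Hochberg. The number of arrays limits the precision. Intervals are those of this fit at 95%, without adjustment for the number of genes.

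Genes and lists were chosen with earlier results of these data known. In each list the text names every called gene and the 2 highest and 2 lowest means, and the 3 ORFs closest to each called cyclin gene. One gene that this rule names is not reported here. GIC1, PHO85, FAR1, SWI5, CDC4, CDC34, CTS1 and the genes with fewer than 4 values were added once their values were known. Alternatives comprised either pairing by itself, 4 arrays as if independent, other normalizations, robust empirical Bayes, ORFs with 3 or more values, other thresholds and leaving out each array.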

Additional observations from a re-analysis of the deposited data

Results flagged for a closer look

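For CLN1 a single array was distant from the rest. Its log2 ratio was 0.15 on array 3, and between 0.40 and 0.43 on the other arrays. A gap of this relative size arises by chance in about 1 of 20 sets of 4 values, and 47 genes were examined. Without array 3 the log2 ratio of CLN1 was 0.42 and its adjusted p in limma 0.0693.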

How the results depend on the processing

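PCL2 passed in all 13 alternative fits, with a log2 ratio of 0.75 to 0.81 and an adjusted p in limma of at most 0.0271. Among them, the pairing of array 1 with array 2 and array 3 with array 4 gave the larger p that the main fit kept. For PCL2 it repeats the main fit (adjusted p = 0.00684 in limma in both) and is no separate check. CLN1 (0.35), CLN3 (0.41) and SIC1 (0.24) passed only where named in the report (adjusted p from 0.00731 to 0.293, 0.00257 to 0.641 and 0.0455 to 0.615 over the alternatives in limma), so that the count on the side of SLT2 was 4 when array 1 was paired with array 4 and array 2 with array 3, and 2 with robust empirical Bayes, against 1. Means near 0 changed sign without passing. PCL1 had 0.0089 with arrays centred, 0.011 with centring and scaling, and -0.0596 to 0.037 leaving out each array. CLB5 had 0.020, 0.016 and 0.0026 with centring, centring and scaling, and quantile normalization, and -0.0798 to 0.0793 leaving out each array. CLB1 had -0.32 (without array 1) to 0.00995 (without array 3). Means that kept their sign also moved by over 1.5 times, for CLN3 (0.22 without array 3 and 0.21 without array 4), CLB2 (-0.14, -0.16, -0.03 and -0.0073 without arrays 1 to 4 in turn) and SIC1 (0.16 without array 1). Fits without 1 array took the others as independent with a dye term.

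Over all ORFs 207 were called on the side of SLT2 and 63 opposite. These counts were 598 and 631 when array 1 was paired with array 4 and array 2 with array 3, 319 and 193 for a dye term with the 4 arrays taken as independent, 338 and 189 with ORFs of 3 or more values in that fit, 358 and 225 with robust empirical Bayes, and 120 and 13 at an adjusted p under 0.01. The opposite count was 27 with arrays centred, 19 with scaling as well, 153 at an adjusted p under 0.1, and 39 to 60 leaving out each array (39 without array 2 or 4). Calls on the side of SLT2 made up 76.7% of the total, 86.0% after centring and 88.6% after scaling as well. Their share was 61.4% with robust empirical Bayes and 62.3% with a dye term and the 4 arrays taken as independent. Over all alternatives it ran from 48.7% to 90.2%. The lowest came with array 1 paired with array 4 and array 2 with array 3, the highest at an adjusted p under 0.01.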

Other observations

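Several regulators of these cyclins had values on 3 arrays and were named after their values were seen. SWI6, the subunit shared by SBF and MBF, had 0.10, -0.07 and -0.89 on arrays 1, 2 and 4. MBP1, the DNA-binding subunit of MBF, had 0.13, -0.09 and -0.09 on arrays 1, 3 and 4, all close to 0. SWE1, the kinase that inhibits Clb-bound Cdc28 in the morphogenesis checkpoint, had -0.53, 0.36 and -0.05 on arrays 1, 2 and 4, with mixed signs. CDC6, a replication licensing factor, had -0.69, -0.15 and 0.14 on arrays 1, 3 and 4. CDH1, the activator of the anaphase-promoting complex that targets Clb2, had -0.15, -0.09 and 0.04 on arrays 1, 3 and 4. In a limma fit of ORFs with 3 or more values none of these 5 passed (adjusted p = 0.604, 0.886, 0.448, 0.627 and 0.856). WHI5, the repressor of SBF, had no value on any array.

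Markers of other cell states were mostly without values. Of 6 sporulation genes 0 had values on 4 arrays, and IME1, the inducer of meiosis, had -0.25, -0.33 and 0.02 on arrays 1, 3 and 4. Of 5 pheromone response genes 1 was tested, FUS1, a cell fusion protein gene, with -0.23 ± 0.07, negative on all 4 arrays (adjusted p = 0.358 in limma).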
